A study of Mus musculus with 2 samples.

Results

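Cholesterol synthesis and its control by the sterol regulatory element binding proteins (SREBPs) were described through 32 genes in total RNA of the mouse adrenal gland. The genes were chosen by symbol and matched to gene identifiers through the transcript names of the second quantification. All 32 were found among 55536 annotated genes. They comprise 20 synthesis enzymes, 7 genes of SREBP control and 5 genes of the liver X receptor (LXR) and efflux branch. The tissue came from male B6CASTF1/J mice, the first-generation offspring of the C57BL/6J and CAST/EiJ strains, at 25 days of age. The design held 1 group of 2 libraries, named replicate 1 and replicate 2 by the labels, each made from 300 ng of RNA with ERCC spike-ins. By its biosample label, replicate 1 came from animal 3 and replicate 2 from animal 4, whereas both library labels point to animal 3 and the donor label is shared. The labels therefore do not settle whether the libraries stand for separate animals, and the spread between them may not be one between animals. No comparison of conditions existed, and all ratios compare these libraries only.

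Cells make cholesterol from acetyl-CoA through mevalonate, isoprenoid diphosphates, squalene and lanosterol, and the adrenal cortex turns cholesterol into steroid hormones. When sterols are scarce, SCAP escorts SREBPs from the endoplasmic reticulum to the Golgi, where site-1 and site-2 proteases release the active factor; INSIG proteins hold SCAP back when sterols are plentiful. LXRs sense oxysterols and turn on the cholesterol exporters, the E3 ligase MYLIP and the SREBP-1c transcript.

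Replicate 1 held 34987819 expected counts on annotated genes and replicate 2 held 34835147. Expected counts are the authors' estimates of reads per gene. The adrenal identity was present in both libraries: all 7 steroidogenic cortex markers and all 6 chromaffin markers reached a level of 1 in TPM, the authors' length-scaled measure of transcript abundance. Markers of other tissues set the libraries apart. The 7 liver markers summed to 28.5 TPM in replicate 1 and 21221 in replicate 2, all were lower in replicate 1, and none was at 0. The 6 skeletal muscle markers summed to 1088 TPM in replicate 1 and 1.70 in replicate 2, where Tnni2, a fast-muscle troponin, was listed at 0. The steroidogenic markers summed to 12342 TPM in replicate 1 and 6802 in replicate 2, and the chromaffin markers to 1824 and 1245 TPM in the same order.

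All 32 genes reached 1 TPM in both libraries, a level that 23.6% of annotated genes and 54.1% of nuclear protein-coding genes reached. Their median level was 19.6 TPM in replicate 1 and 29.8 in replicate 2, beside 4.37 and 4.42 TPM over the 19801 genes with at least 10 counts in total. Over the 10713 genes with at least 500 counts in total, the medians were 13.41 TPM in replicate 1 and 12.75 in replicate 2. The highest value was 236 TPM, for Dhcr7 in replicate 1, and the lowest was 3.59 TPM, for Abcg1 in replicate 1. By mean TPM, 4 of the 32 lay among the top 1000 of 22015 nuclear protein-coding genes: Dhcr7 at rank 283, Hmgcs1 at 593, Fdps at 626 and Abca1 at 813. The 20 enzymes summed to 749 TPM in replicate 1 and 732 in replicate 2 (740 ± 12.5 TPM, SD, n = 2).

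**Figure D1:**
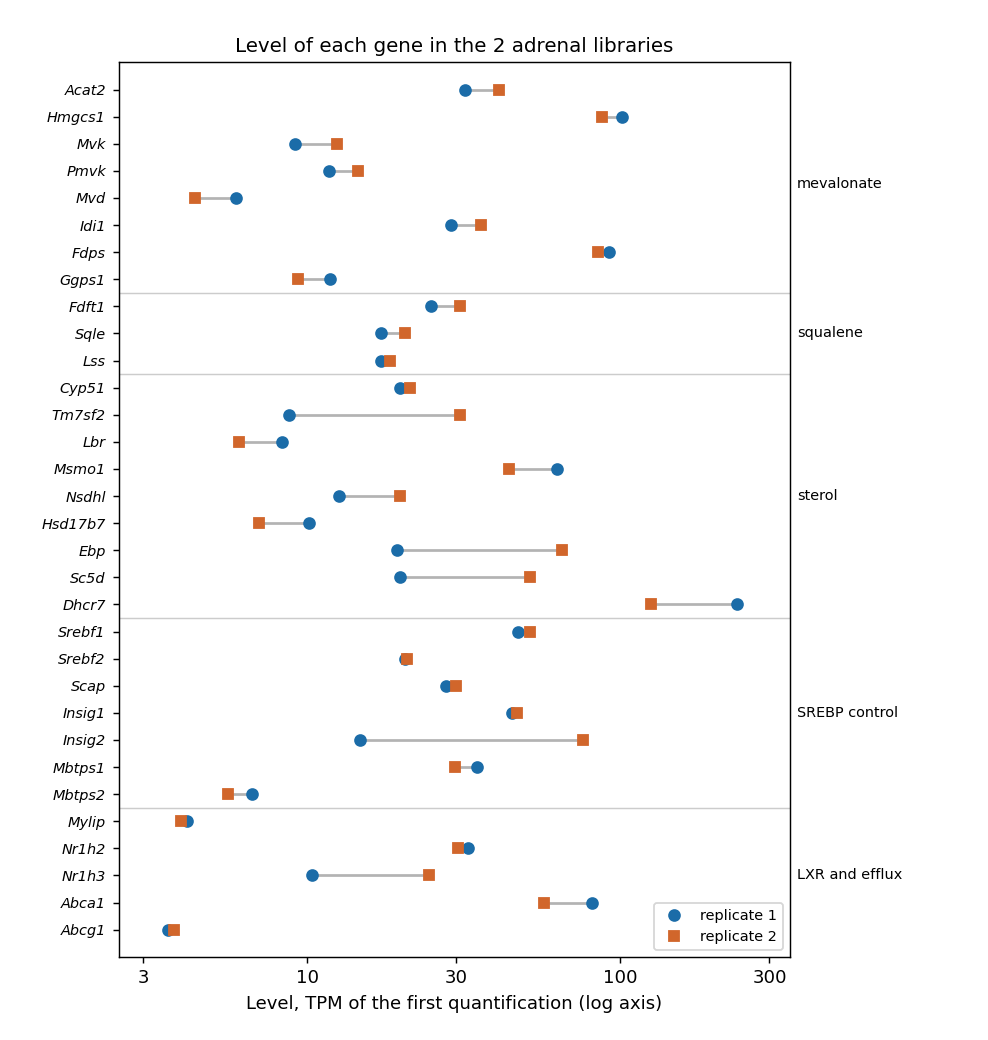
TPM of the first quantification (log axis) for each of the 32 genes, ordered by pathway step, with replicate 1 as circles, replicate 2 as squares and a grey line between them. Dhcr7 is the highest gene in both libraries, and the long lines of Tm7sf2, Ebp, Sc5d, Insig2 and Nr1h3 mark the genes with higher TPM in replicate 2.

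The libraries were compared by the log2 ratio of counts, replicate 1 over replicate 2, after scaling of library sizes by the trimmed mean of M values (TMM); a negative value means lower in replicate 1. Each ratio has a 95% interval that covers counting error only. Of the 32 genes, 1 was at least 1.5-fold higher in replicate 1 (3.12% of members, beside 8.11% of the 19801 genes) and 7 were at least 1.5-fold lower (21.9% of members, beside 15.6%). At 2-fold, 0 members were higher (3.86% of genes) and 5 were lower (15.6% of members, beside 10.3%). Among the 10713 genes with at least 500 counts in total, which every member exceeds, the shares were 2.48% higher and 11.2% lower at 1.5-fold, and 0.831% higher and 7.99% lower at 2-fold. The gene higher by 1.5-fold was Dhcr7, and the lower ones were Mvk, Nsdhl, Sc5d, Nr1h3, Ebp, Tm7sf2 and Insig2. Just past the 1.5-fold limit lay Dhcr7 at 0.62 and Mvk at -0.65, and just short of it Fdft1 at -0.57 and Idi1 at -0.56.

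The median log2 ratio was -0.31 over the members and -0.47 over the 20 enzymes, against -0.0024 over all genes with at least 10 counts and 0.01 over those with at least 500. The interval lay below 0 for 19 of the 32 members (23.7% of genes with at least 10 counts and 30.4% of those with at least 500) and above 0 for 5 (20.7% and 29.6%). Scaling by total counts moved the median of all genes to 0.24 and scaling by ERCC totals moved it to 0.37, so directions of small ratios depend on the scaling. With total counts 2 members were at least 1.5-fold higher and 6 lower, and with ERCC totals 3 were higher and 5 lower. The shares over all genes were computed with TMM only, so these counts have no background to be read against. The 5 members lower by 2-fold with TMM were lower by 1.5-fold under every scaling. The liver markers were higher in replicate 2 and the muscle markers in replicate 1; their part in these ratios was not tested. In bulk tissue, fewer cells of a type and less RNA per cell cannot be told apart.

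**Figure D2:**
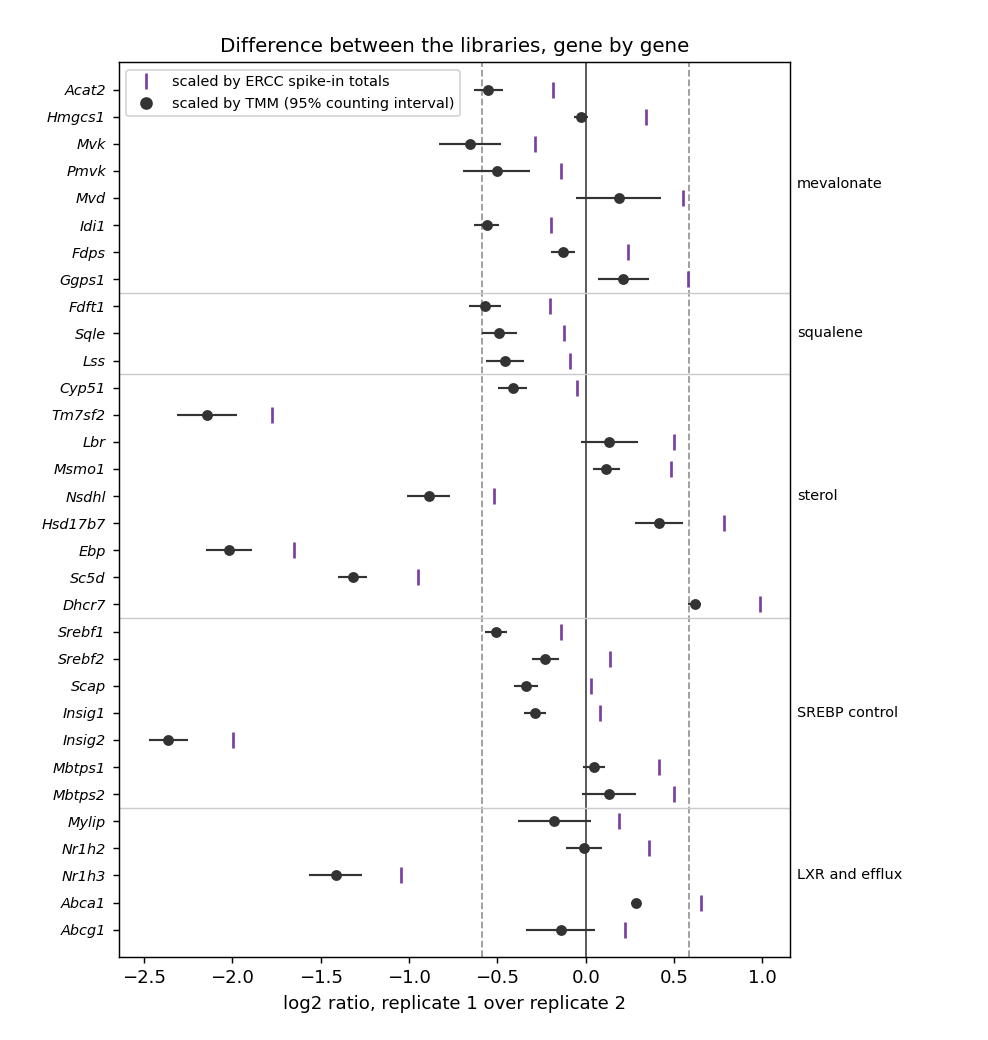
Log2 ratio of each gene, replicate 1 over replicate 2, scaled by TMM (points, with 95% counting intervals) and by ERCC spike-in totals (purple ticks); dashed lines mark 1.5-fold. Insig2, Tm7sf2, Ebp, Nr1h3 and Sc5d lie left of the lower line on both scalings, while the sign of genes near 0, such as Hmgcs1, Srebf2, Scap and Insig1, differs between them.

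The mevalonate segment, 8 enzymes that build isoprenoid diphosphates, summed to 292 TPM in replicate 1 and 290.03 in replicate 2. Hmgcs1, the cytosolic HMG-CoA synthase (ENSMUSG00000093930.2, mm10 chromosome 13, 119690379 to 119708260), had 101 TPM in replicate 1 and 87.3 in replicate 2. Its log2 ratio was -0.02 (-0.06 to 0.02), so on TMM-scaled counts the libraries did not differ beyond counting error. Fdps, which makes farnesyl diphosphate, had 91.9 TPM in replicate 1 and 84.9 in replicate 2. Hmgcs1 and Fdps ranked 2 and 3 among the 20 enzymes in each library, after Dhcr7. Acat2, the cytosolic thiolase that opens the pathway, had 31.9 TPM in replicate 1 and 41.1 in replicate 2, and Idi1, the isopentenyl diphosphate isomerase, had 28.8 and 35.9 TPM in the same order.

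The remaining mevalonate genes were lower in level. Mvk, mevalonate kinase, had 9.18 TPM in replicate 1 and 12.5 in replicate 2, with a log2 ratio of -0.65 (-0.83 to -0.48). Under total counts (-0.41) and ERCC totals (-0.29) it did not reach 1.5-fold. Pmvk, phosphomevalonate kinase, had 11.7 TPM in replicate 1 and 14.5 in replicate 2. Mvd, which decarboxylates mevalonate diphosphate, was the least abundant enzyme in both libraries, at 5.91 TPM in replicate 1 and 4.40 in replicate 2. Ggps1, which makes geranylgeranyl diphosphate for protein prenylation, had 11.8 TPM in replicate 1 and 9.34 in replicate 2. For Mvd the interval of the log2 ratio included 0 (0.19, -0.06 to 0.43); for Ggps1 it did not (0.21, 0.07 to 0.36).

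Promoters were read because SREBPs act at sterol regulatory elements, usually beside binding sites of NF-Y and Sp1. RefSeq (GRCm38.p6) start sites gave 37 windows of 250 bases upstream for 28 of the 32 genes. Fdps, Fdft1, Sqle and Abcg1 had no matched window, so the motif counts say nothing about them. Only 20 of the 37 hold no annotated exon of their own gene, and the motif counts use all 37. The windows were searched on both strands for TCACNCCAC, a form of the sterol regulatory element, for CCAAT, the NF-Y motif, and for GGGCGG, the GC box of Sp1. No motif contains another. TCACNCCAC was in 1 of 37 windows, that of Hmgcs1, against 1.05% of all 32851 windows. CCAAT was in 22 of 37, against 33.9% of all windows and 35.1% of the 12023 windows of protein-coding genes at 1 TPM or more in both libraries. GGGCGG was in 26 of 37, against 32.7% and 58.3%. The 17 enzymes with a window had 20 windows, of which 16 (80.0%) had CCAAT and 16 (80.0%) had GGGCGG. A match is a string of letters and no evidence of binding.

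The Hmgcs1 window carries all 3 motifs and is shown as the only one with TCACNCCAC, which begins 137 bases before the start. It is chr13:119690101-119690350, plus strand, written 5′ to 3′ with the motifs in capitals.
Hmgcs1: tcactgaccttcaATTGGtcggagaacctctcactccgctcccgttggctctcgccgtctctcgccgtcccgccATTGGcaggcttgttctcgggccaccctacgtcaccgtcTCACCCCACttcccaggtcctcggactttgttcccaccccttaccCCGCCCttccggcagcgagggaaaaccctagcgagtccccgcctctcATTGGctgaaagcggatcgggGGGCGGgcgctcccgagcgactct

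The squalene segment summed to 59.5 TPM in replicate 1 and 69.8 in replicate 2. Fdft1, squalene synthase, had 25.0 TPM in replicate 1 and 30.8 in replicate 2. Sqle, squalene epoxidase, had 17.3 TPM in replicate 1 and 20.5 in replicate 2. Lss, lanosterol synthase, had 17.3 TPM in replicate 1 and 18.5 in replicate 2. All 3 had negative log2 ratios between -0.57 and -0.46, short of 1.5-fold, with intervals below 0. Their TPM values carry no TMM scaling. For Lss, 69.3% of TPM in replicate 1 and 63.4% in replicate 2 was assigned to transcripts annotated as noncoding, and the leading transcript differed between the libraries.

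The sterol segment, 9 enzymes that convert lanosterol to cholesterol, summed to 397 TPM in replicate 1 and 372 in replicate 2. Dhcr7, the final reductase of the Kandutsch-Russell route (ENSMUSG00000058454.15, mm10 chromosome 7, 143823145 to 143848410), had 236 TPM in replicate 1 and 126 in replicate 2. It held 31.4% of the TPM of the 20 enzymes in replicate 1 and 17.2% in replicate 2. Its counts were 16862 in replicate 1 and 9251 in replicate 2, a log2 ratio of 0.62 (0.58 to 0.65), and 0.99 with ERCC totals. The steroidogenic markers had a median log2 ratio of 0.63 with 7 of 7 above 0, beside the 0.62 of Dhcr7; their part in it was not tested. Dhcr7, Hmgcs1 and Fdps together held 57.2% of enzyme TPM in replicate 1 and 40.7% in replicate 2.

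Among the enzymes, the widest differences between the libraries lay in the sterol segment. Tm7sf2, a sterol reductase that acts after lanosterol demethylation (ENSMUSG00000024799.16, mm10 chromosome 19, 6062821 to 6068373), had 8.74 TPM in replicate 1 and 30.7 in replicate 2. Ebp, the sterol isomerase (ENSMUSG00000031168.14, mm10 chromosome X, 8185329 to 8193512), had 19.4 TPM in replicate 1 and 65.0 in replicate 2. Sc5d, the sterol desaturase just before Dhcr7 in the route (ENSMUSG00000032018.14, mm10 chromosome 9, 42251595 to 42264256), had 19.8 TPM in replicate 1 and 51.6 in replicate 2. Their log2 ratios were -2.14 (-2.31 to -1.97) for Tm7sf2, -2.02 (-2.15 to -1.89) for Ebp and -1.32 (-1.40 to -1.24) for Sc5d. Nsdhl, which takes part in removal of methyl groups (mm10 chromosome X, 72918557 to 72958514), had 12.6 TPM in replicate 1 and 19.9 in replicate 2, a log2 ratio of -0.89 (-1.01 to -0.77). It was at -0.52 with ERCC totals, short of 1.5-fold.

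In the order of the 20 enzymes by TPM, Ebp ranked 10 in replicate 1 and 4 in replicate 2, Sc5d ranked 9 and 5, and Tm7sf2 ranked 18 and 10. These ranks do not depend on library scaling. The other 4 sterol enzymes had ratios short of 1.5-fold with TMM. Lbr, which has the same sterol reductase activity as Tm7sf2 and also binds lamin B, had 8.31 TPM in replicate 1 and 6.08 in replicate 2. Msmo1, the methyl sterol oxidase, had 63.1 TPM in replicate 1 and 44.3 in replicate 2, and Hsd17b7, the keto-sterol reductase, had 10.1 and 7.01 TPM in the same order. Cyp51, the lanosterol demethylase, had 19.9 TPM in replicate 1 and 21.3 in replicate 2. The log2 ratio was 0.13 for Lbr, 0.12 for Msmo1, 0.42 for Hsd17b7 and -0.41 for Cyp51.

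The promoter windows of Nsdhl, Ebp and Sc5d are shown because these late enzymes differed between the libraries and their windows hold no annotated exon of the gene. Each has at least 1 CCAAT and 1 GGGCGG, read on either strand (ATTGG and CCGCCC are the reverse complements), and none has TCACNCCAC. Nsdhl is chrX:72918271-72918520 on the plus strand, Ebp chrX:8193513-8193762 on the minus strand and Sc5d chr9:42264301-42264550 on the minus strand; capitals mark the motifs. The CCAAT nearest to the start begins 20 bases before it for Nsdhl, 55 for Ebp and 24 for Sc5d.
Nsdhl: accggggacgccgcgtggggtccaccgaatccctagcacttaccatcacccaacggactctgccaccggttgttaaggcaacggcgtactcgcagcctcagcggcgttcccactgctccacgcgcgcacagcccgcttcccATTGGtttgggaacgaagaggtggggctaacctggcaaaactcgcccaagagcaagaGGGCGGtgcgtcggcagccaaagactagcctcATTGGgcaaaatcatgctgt
Ebp: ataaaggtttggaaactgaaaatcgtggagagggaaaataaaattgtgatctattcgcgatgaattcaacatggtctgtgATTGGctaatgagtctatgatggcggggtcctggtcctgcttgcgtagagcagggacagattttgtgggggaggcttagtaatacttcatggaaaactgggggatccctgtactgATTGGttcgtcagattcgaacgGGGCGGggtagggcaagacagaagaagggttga
Sc5d: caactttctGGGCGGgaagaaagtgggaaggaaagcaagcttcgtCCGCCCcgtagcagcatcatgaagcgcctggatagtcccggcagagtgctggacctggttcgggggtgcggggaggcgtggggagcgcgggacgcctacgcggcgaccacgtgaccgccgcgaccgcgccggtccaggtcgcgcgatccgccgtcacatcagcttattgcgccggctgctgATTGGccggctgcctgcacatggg

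The 7 genes of SREBP control summed to 197 TPM in replicate 1 and 261 in replicate 2, and Insig2 made up most of that difference. Srebf1 had 47.3 TPM in replicate 1 and 51.6 in replicate 2. Srebf2, whose product favours cholesterol genes, had 20.6 TPM in replicate 1 and 20.9 in replicate 2. Srebf1 was 2.30-fold as abundant as Srebf2 in replicate 1 and 2.48-fold in replicate 2 by TPM. Scap, the escort, had 27.8 TPM in replicate 1 and 29.9 in replicate 2. The proteases also kept a stable ratio: Mbtps1 (site-1) had 34.8 TPM in replicate 1 and 29.8 in replicate 2, Mbtps2 (site-2) had 6.69 and 5.60 TPM in the same order, and their log2 ratio was 2.38 in replicate 1 and 2.41 in replicate 2.

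The INSIG genes did not keep their order. Insig1, itself an SREBP target, had 45.3 TPM in replicate 1 and 47.0 in replicate 2. Insig2 (ENSMUSG00000003721.14, mm10 chromosome 1, 121304353 to 121332589) had 14.8 TPM in replicate 1 and 75.9 in replicate 2, from 849 and 3672 counts. Insig2 was 5.14-fold higher in replicate 2, a log2 ratio of -2.36 (-2.47 to -2.25), the widest of the 32 genes. Insig1 over Insig2 was 1.62 on the log2 scale in replicate 1 and -0.69 in replicate 2, and in the second quantification 1.62 and -1.03. Ratios within a library carry no library scaling.

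**Figure D3:**
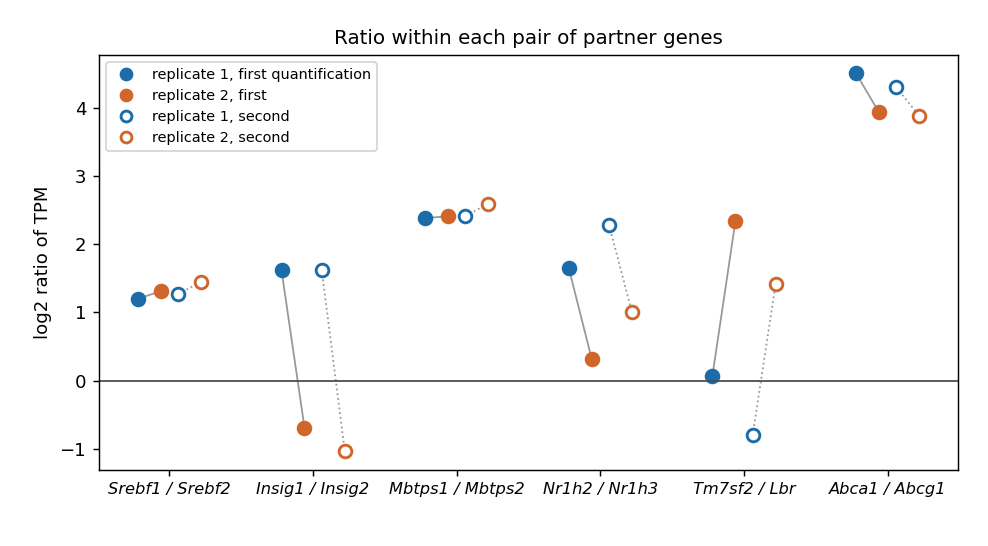
Log2 ratio of TPM within 6 pairs of partner genes, for replicate 1 (blue) and replicate 2 (orange), in the first (filled) and second (open) quantification. The Srebf1 / Srebf2 and Mbtps1 / Mbtps2 ratios lie close in all 4 values, whereas Insig1 / Insig2 crosses 0 between the libraries and Tm7sf2 / Lbr differs by over 2 log2 units.

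The annotation gives Insig2 an upstream start region, 4565 bases before the start of Insig2-201. In mouse liver, Insig2 is also transcribed from a separate liver-specific first exon; whether the upstream region is that exon was not tested. In the first quantification the upstream transcripts, Insig2-202 and Insig2-209, were listed at 0 in replicate 1 and held 731 expected counts, 30.8 TPM and 40.7% of Insig2 in replicate 2. In the second quantification both were listed at 0 in both libraries, so the assignment to the upstream start depended on the quantification. The other 12 transcripts had 14.8 TPM in replicate 1 and 45.0 in replicate 2 in the first quantification, and 26.8 and 165 TPM in the second. Insig2-201, from the downstream start, had 8.77 TPM in replicate 1 and 31.9 in replicate 2 in the first. Its annotated 3′ end, at 121304353, lies beyond those of Insig2-202 (121305522) and Insig2-209 (121319761). Reads of upstream-start RNA from that stretch can therefore be assigned to Insig2-201. Its values do not show a difference apart from the upstream start. All 7 liver markers were higher in replicate 2 as well; their part in the Insig2 difference was not tested.

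RefSeq gives 3 Insig2 windows. The upstream one and that of Insig2-201 differ in the motifs they hold and are shown for that reason; the other, chr1:121327679-121327928, with no CCAAT and 1 GGGCGG, is not shown because 248 of its bases are annotated exon of Insig2. The upstream window, chr1:121332590-121332839, minus strand, has 3 CCAAT and no GGGCGG. The window of Insig2-201, the downstream start, chr1:121328025-121328274, minus strand, has no CCAAT and 1 GGGCGG. Capitals mark the motifs, and neither window has TCACNCCAC.
Insig2, upstream start: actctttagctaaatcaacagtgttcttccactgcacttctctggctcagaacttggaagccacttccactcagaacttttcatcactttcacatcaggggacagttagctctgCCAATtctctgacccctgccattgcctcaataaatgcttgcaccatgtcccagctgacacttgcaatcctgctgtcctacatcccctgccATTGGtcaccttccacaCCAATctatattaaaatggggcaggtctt
Insig2, downstream start: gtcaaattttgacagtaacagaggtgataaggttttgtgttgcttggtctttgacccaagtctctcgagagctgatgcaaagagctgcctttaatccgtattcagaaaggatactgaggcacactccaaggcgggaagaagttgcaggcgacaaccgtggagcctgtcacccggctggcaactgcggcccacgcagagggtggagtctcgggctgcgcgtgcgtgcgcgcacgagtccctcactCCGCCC

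Srebf1 makes SREBP-1a and SREBP-1c from separate first exons. Srebf1-201, with 91 coding bases in its first exon, starts 10139 bases upstream of Srebf1-207, with 19. SREBP-1c has the shorter activation domain and is the LXR-induced form. The SREBP-1a transcript Srebf1-201 had 17.1 TPM in replicate 1 and 19.1 in replicate 2, and the transcripts of the SREBP-1c start, Srebf1-207 and Srebf1-208, had 6.86 TPM in replicate 1 and 9.67 in replicate 2. In the second quantification the SREBP-1a transcript had 23.1 TPM in replicate 1 and 28.0 in replicate 2, and the SREBP-1c start had 21.6 and 24.8 TPM in the same order. The TPM assigned to the SREBP-1a transcript was the higher in each library of both quantifications, by a margin that depended on the quantification. Annotated Srebf1-207 ends 1374 bases before Srebf1-201, so reads from that 3′ stretch cannot be assigned to it and can raise Srebf1-201. In the first quantification, transcripts annotated as noncoding held 46.6% of Srebf1 TPM in replicate 1 and 38.1% in replicate 2. These values therefore do not settle which start made more RNA.

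RefSeq gives 3 Srebf1 windows, of which the SREBP-1a and SREBP-1c ones are shown since these starts give different proteins. The SREBP-1a window, chr11:60220628-60220877, minus strand, has 2 GGGCGG and no CCAAT, and the SREBP-1c window, chr11:60210472-60210721, minus strand, has 1 CCAAT and 2 GGGCGG, all in capitals. The window not shown, chr11:60222582-60222831, has 1 CCAAT and no GGGCGG and lies at the start of Srebf1-204, a noncoding transcript. Srebf1-204 had 9.17 TPM in replicate 1 and 8.26 in replicate 2 in the first quantification and was listed at 0 in both libraries in the second.
Srebf1, SREBP-1a start: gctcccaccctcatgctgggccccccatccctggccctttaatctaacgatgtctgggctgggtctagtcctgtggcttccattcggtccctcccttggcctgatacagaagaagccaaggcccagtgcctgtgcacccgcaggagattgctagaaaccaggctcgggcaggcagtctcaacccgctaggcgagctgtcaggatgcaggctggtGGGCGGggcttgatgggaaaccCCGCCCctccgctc
Srebf1, SREBP-1c start: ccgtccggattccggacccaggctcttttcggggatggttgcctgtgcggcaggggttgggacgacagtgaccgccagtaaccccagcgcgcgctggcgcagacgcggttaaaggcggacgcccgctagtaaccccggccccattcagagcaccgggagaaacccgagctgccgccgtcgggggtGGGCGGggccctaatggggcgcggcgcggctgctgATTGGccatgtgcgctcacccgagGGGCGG

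**Figure D4:**
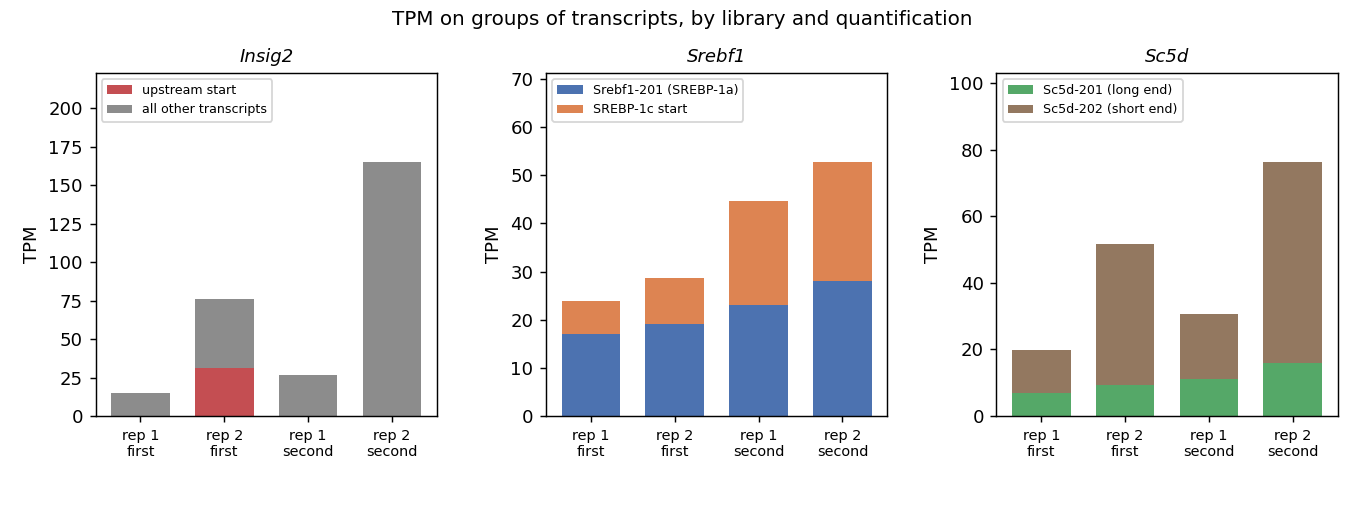
TPM on groups of transcripts of Insig2, Srebf1 and Sc5d as stacked bars, for replicate 1 and replicate 2 in the first and second quantification. The upstream Insig2 start appears only in replicate 2 of the first quantification (30.8 TPM), and most of the Sc5d difference is assigned to Sc5d-202 in both quantifications.

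The LXR and efflux genes summed to 132 TPM in replicate 1 and 120 in replicate 2. Nr1h2, which encodes LXR beta, had 32.6 TPM in replicate 1 and 30.4 in replicate 2. Nr1h3, which encodes LXR alpha and is known as high in liver and macrophages (ENSMUSG00000002108.10, mm10 chromosome 2, 91184061 to 91202834), had 10.4 TPM in replicate 1 and 24.5 in replicate 2. The Nr1h3 log2 ratio was -1.41 (-1.56 to -1.26). Nr1h2 over Nr1h3 was 1.65 on the log2 scale in replicate 1 and 0.31 in replicate 2. The 5 macrophage markers summed to 82.0 TPM in replicate 1 and 84.95 in replicate 2. By 1.5-fold, 1 was lower (15.6% of the 19801 genes) and 0 were higher (8.11%). Their median log2 ratio was -0.53, with 4 of 5 below 0; Lyz2, the exception, had 39.1 TPM in replicate 1 and 31.98 in replicate 2. The 7 liver markers, all lower in replicate 1, summed to 28.5 TPM in replicate 1 and 21221 in replicate 2, with a median log2 ratio of -9.78. The part of liver or macrophages in the Nr1h3 ratio was not tested.

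Abca1, which exports cholesterol to lipid-poor apolipoprotein, had 81.3 TPM in replicate 1 and 57.1 in replicate 2, with the largest counts of the 32 genes (27963 in replicate 1 and 19317 in replicate 2). Its log2 ratio was 0.29 (0.26 to 0.31), short of 1.5-fold with TMM, and 0.65 with ERCC totals, past it. Abcg1, which exports cholesterol to larger lipoproteins, had 3.59 TPM in replicate 1 and 3.75 in replicate 2. Mylip, the ligase that marks lipoprotein receptors for degradation, had 4.15 TPM in replicate 1 and 3.96 in replicate 2. For Abcg1, Mylip and Nr1h2 the interval of the log2 ratio included 0.

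The fatty acid branch of SREBP targets was more abundant in summed TPM than the cholesterol enzymes. Its 10 genes summed to 3484 TPM in replicate 1 and 3260.32 in replicate 2, with a median log2 ratio of -0.01. Scd1, the stearoyl-CoA desaturase, had 767 TPM in replicate 1 and 943 in replicate 2, and Fasn, the fatty acid synthase, had 748 and 769 TPM in the same order. Acly, which supplies cytosolic acetyl-CoA from citrate, had 518 TPM in replicate 1 and 418 in replicate 2, and Me1, malic enzyme, had 403 and 294 TPM in the same order. Of the 10, 0 were at least 1.5-fold higher and 1 was lower in replicate 1: Acss2, which makes acetyl-CoA from acetate, at 23.0 TPM in replicate 1 and 43.7 in replicate 2. Among the 19801 genes with at least 10 counts, 8.11% were higher and 15.6% lower at 1.5-fold, so this count is no result about the list. The 5 white and 4 brown adipocyte markers summed to 2314 and 1169 TPM in replicate 1, and to 1931 and 802 TPM in replicate 2; their part in the levels of the fatty acid branch was not tested.

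The other lists held lower levels. The 10 isoprenoid users, which attach or extend isoprenoids, summed to 158 TPM in replicate 1 and 131 in replicate 2, with a median log2 ratio of 0.02. Rabggta, a subunit of the Rab prenylation enzyme, was the 1 gene at least 1.5-fold lower in replicate 1, at 7.17 TPM in replicate 1 and 9.77 in replicate 2, and 0 were higher. The 10 SREBP partners and sterol sensing genes summed to 192 TPM in replicate 1 and 170 in replicate 2, with a median of -0.16, 2 lower and 0 higher. The lower genes were Stard4, a cytosolic sterol carrier, at 10.8 TPM in replicate 1 and 16.6 in replicate 2, and Paqr3, a Golgi anchor of SCAP, at 1.19 and 1.72 TPM in the same order. Beside the 8.11% higher and 15.6% lower of the 19801 genes, the counts in these lists are no result about them.

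The 32 genes had 217 annotated transcripts, from 2 to 18 each. The leading transcript was the same in both libraries for 30 of 32 genes in the first quantification and for 30 in the second, and the same in all 4 columns for 22. Sc5d has a long and a short 3′ end, 3138 bases apart. The short Sc5d-202 had 12.9 TPM in replicate 1 and 42.2 in replicate 2, a log2 ratio of -1.94, and the long Sc5d-201 had 6.82 and 9.42 TPM in the same order, a log2 ratio of -0.70. The second quantification gave -1.92 for the short form and -0.77 for the long form. In the first quantification, 65.5% of Sc5d TPM in replicate 1 and 81.8% in replicate 2 was thus assigned to the short form. Reads from sequence that both forms share can be assigned to either, so these shares are estimates.

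The quantifications, made from the same reads, gave the same sign of the library ratio for 31 of 32 genes, with Nr1h2 (-0.01 and 0.03) as the exception. Members were 1.70-fold lower in TPM in the first than in the second (median log2 ratio -0.76), as were the 12626 nuclear protein-coding genes compared. Relative to that median, 0 members were at least 1.5-fold above (1.96% of genes) and 1 was at least 1.5-fold below (4.21% of genes). This was Lbr, with 8.31 and 6.08 TPM in the first quantification and 25.0 and 20.4 TPM in the second, replicate 1 given before replicate 2. Transcripts under 1000 bases held 28.4% of Lbr in replicate 1 and 23.0% in replicate 2 in the first, and 64.7% and 66.9% in the second.

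**Figure D5:**
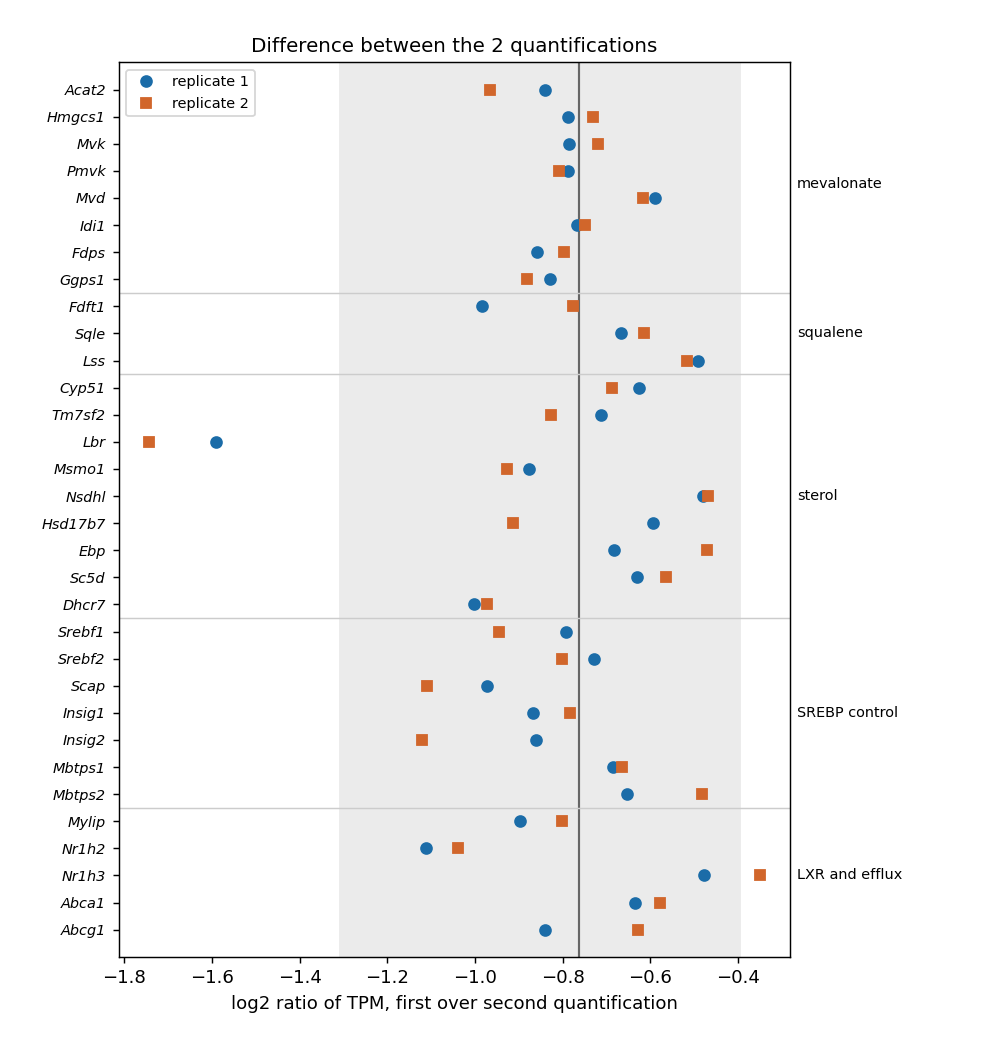
Log2 ratio of TPM, first over second quantification, for each gene in replicate 1 (circles) and replicate 2 (squares); the vertical line is the median of 12626 nuclear protein-coding genes (-0.76) and the grey band runs from their 5th to their 95th percentile. Lbr lies left of the band in both libraries, and Nr1h3 lies past its right edge in replicate 2.

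Assignment of reads between genes was precise for the members: the posterior SD of the count, given by the authors, was at most 2.53% of the count (Tm7sf2 in replicate 1) and under 1% in both libraries for 28 of 32. Exons of 9 members overlap exons of another gene on the opposite strand, up to 18.3% of exonic bases for Fdft1 with Ctsb, and exons of 6 overlap on the same strand, up to 28.4% for Mbtps2 with Yy2 and 26.7% for Fdps with Gm43738. Whether counting used the strand is not stated by the labels or headers, so these levels are uncertain by such reads. For Tm7sf2, 12.1% of exonic bases overlap Vps51 on the same strand, and its ratio was -2.03 in the second quantification. Nr1h2-ps, an annotated pseudogene of Nr1h2, was listed at 0 in both libraries.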

How the data were processed

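Total RNA of mouse adrenal gland was measured in 2 libraries of 1 group, grouped and numbered by the labels. Each library had a first quantification, made from an alignment to the transcriptome, and a second, made from the reads and an index, both on mm10 with annotation M21, per the text files deposited with the samples. Which aligner and quantifiers were used is not given in the sources used. The expected counts and estimated counts, the TPM and the percent of a gene's TPM on each transcript are the authors' values, per the file headers. The posterior SD of each count, used as a score of shared reads, is also the authors', per the file headers. TPM of the first quantification counts spike-ins and all other listed sequences in its total, and estimates of the second were summed per gene.

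Total expected counts were 35283841 in replicate 1 and 35156690.03 in replicate 2; entries that name no gene (spike-ins, and other sequences with 8 and 6.73 counts) made up 0.839% and 0.915% and stayed out of library sizes. Expected counts, rounded to whole numbers, were scaled by TMM in edgeR 4.0.16 (R 4.3.3; factors 1.09 and 0.920). Ratios of replicate 1 over replicate 2 have 95% exact conditional binomial intervals (scipy 1.17.1), which cover counting error only, and were computed for genes with at least 10 counts in total. The calculation was tested on simulated data. With 1 library on each side no test was possible and no p-value is given; a gene was called at 1.5-fold. Alternatives were total counts, DESeq2 1.42.0 size factors, ERCC totals, the second quantification, no filter, 2-fold, other TPM limits and pseudocounts, TPM over nuclear protein-coding genes, and each replicate alone. The background of genes with at least 500 counts was added after seeing the data. All 32 members were named, as were, in 3 pathway lists, genes among the 4 highest by mean TPM or past 1.5-fold; 1 gene of these lists is not reported here. Members and lists were chosen with earlier results of these data known. Genes that overlap members are named from the GENCODE M21 annotation. Promoter windows are from RefSeq, GRCm38.p6.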

Additional observations from a re-analysis of the deposited data

How the results depend on the processing

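The summed TPM of the 20 enzymes, 740, became 1314 with the second quantification and 2175 with TPM over nuclear protein-coding genes; each replicate alone gave 732 to 749. All 32 genes stayed at or above the limit at 0.5 TPM, in the second quantification and in each replicate alone, and 29 at 5 TPM. Members at least 1.5-fold higher in replicate 1 numbered 1 with TMM, DESeq2 size factors, the second quantification and no filter, 2 with total counts, 3 with ERCC totals and 0 at 2-fold. Members at least 1.5-fold lower numbered 7 with TMM, DESeq2 size factors and no filter, 6 with total counts, 5 with ERCC totals, 10 with the second quantification and 5 at 2-fold. Shares over all genes were computed only with TMM on the first quantification. The counts under other scalings and in the second quantification therefore have no background. The median log2 ratio over members was -0.31 with TMM, -0.071 under total counts and 0.055 under ERCC totals, as the median of all genes moved from -0.0024 to 0.24 and 0.37. No ratio past 1.5-fold with TMM changed direction under the other scalings or in the second quantification; the cause of these shifts was not tested. The median ratio between quantifications, -0.76, was -0.79 to -0.78 in each replicate alone and -0.73 with a pseudocount of 1. The share of Insig2 on the upstream start averaged 20.3% in the first quantification and 0% in the second. Leaving out a replicate leaves no ratio between libraries. No paired analysis was possible because there is 1 group. Counts per member ran from 583 to 47280 over both libraries, and depth sets only the counting error of each ratio.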
